A study of Mus musculus with 14 samples.

Results

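The genes followed here, 10 in number, make and guard chromosome ends: Tert, Dkc1 and Wrap53 of telomerase, and Terf1, Terf2, Terf2ip, Tinf2, Acd, Pot1a and Pot1b of shelterin. They were chosen by gene name in the count table. All 10 were found among its 54532 genes, and all 10 passed the filter on low counts that left 15915 genes for testing. RNA came from sorted submandibular (salivary) gland cells of adult mice with the genotype TertCreERT2/+ Rosa26LSL-tdTomato/+. All groups carry these alleles: a Cre recombinase that tamoxifen activates, placed at Tert, and a fluorescent tdTomato gene that stays silent until Cre has acted. Live cells (DAPI-) with the epithelial surface protein EpCAM were sorted into tdTomato+ cells, titled Tert+ (TertHigh), and tdTomato- cells, titled Tert- (TertLow), with or without 15 Gy of radiation (RT). Each population had 3 libraries without RT and 4 after RT, which gives 4 groups.

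Several points of the labels limit these groups. A label field for cell type states the opposite population to the title in 14 of 14 libraries, so the direction of every Tert+ against Tert- value rests on the titles. The labels give no time from RT, no tamoxifen schedule, no age beyond adult, and no number of animals per library. Nothing says that replicates came from separate animals, and the spread behind each p-value is that between libraries, which may be technical. The reporter marks cells in which Cre was active, and their descendants, whatever their Tert RNA at the time of sorting. Total counts ran from 9220126 to 15943597 without RT and from 5520412 to 11642156 after RT. The libraries after RT also carry the higher library numbers, so RT and library order cannot be told apart.

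General epithelial markers were scarcer than those of B cells, while acinar markers overlapped them. Markers of B cells (8 genes, among them Cd79a and Ms4a1) took 0.788% to 1.31% of counts, while general epithelial markers (8 genes, among them Epcam and Krt8) took 0.00914% to 0.0508%. Markers of acinar cells, the secretory epithelium, took 0.180% to 2.57% (median 0.688%), and those of granular ducts 0.0757% to 1.41% (8 genes each). All 8 general epithelial markers had counts in at least some libraries. Tert+ RT replicate 4 lay at 126 on the second principal component, where the other libraries lay between -52.2 and 29.3. In Tert+ no RT replicate 1 the 10 most abundant genes took 17.9% of counts, against 9.3% to 13.8% elsewhere. Results were also computed without this pair of libraries.

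Telomerase adds telomeric repeats to chromosome ends. Tert is its reverse transcriptase, and the RNA Terc carries the template. Dyskerin, the product of Dkc1, binds Terc and other H/ACA RNAs together with Nhp2, Nop10 and Gar1, and also works in ribosomal RNA modification. Wrap53 (TCAB1) brings the enzyme to Cajal bodies. Shelterin coats the repeats: Terf1 (TRF1) and Terf2 (TRF2) bind the duplex, Terf2ip (RAP1) joins TRF2, Tinf2 (TIN2) bridges the complex, and Acd (TPP1) recruits telomerase and holds POT1 on the overhang. Mice have 2 POT1 genes, Pot1a and Pot1b. In adult tissues most differentiated cells hold little Tert RNA, while dyskerin and shelterin are made broadly.

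Promoter sequence is shown for Tert, whose locus defines the sort, for Dkc1, and for Nhp2 and Ruvbl1, a partner and an assembly factor of dyskerin whose RNA fell with it. Each run is the 250 bases before the gene's start in RefSeq on GRCm38.p6, the assembly of mm10, 5′ to 3′ on the plus strand, which is the coding strand of all 4 genes. Capitals mark GGGCGG, or CCGCCC on this strand, the core of a GC box. The windows are chr13:73626661-73626910 for Tert, chrX:75095604-75095853 for Dkc1, chr11:51619523-51619772 for Nhp2 and chr6:88465159-88465408 for Ruvbl1.
Tert: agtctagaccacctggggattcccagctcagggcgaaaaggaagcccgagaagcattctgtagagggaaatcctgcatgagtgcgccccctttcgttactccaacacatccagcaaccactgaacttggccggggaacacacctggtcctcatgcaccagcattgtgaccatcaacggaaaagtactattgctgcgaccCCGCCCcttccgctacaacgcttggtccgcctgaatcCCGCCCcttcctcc
Dkc1: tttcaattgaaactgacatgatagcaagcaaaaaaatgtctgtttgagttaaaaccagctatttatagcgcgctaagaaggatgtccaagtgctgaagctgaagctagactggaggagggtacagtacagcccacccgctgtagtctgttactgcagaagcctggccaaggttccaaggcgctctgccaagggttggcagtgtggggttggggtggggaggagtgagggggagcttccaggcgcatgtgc
Nhp2: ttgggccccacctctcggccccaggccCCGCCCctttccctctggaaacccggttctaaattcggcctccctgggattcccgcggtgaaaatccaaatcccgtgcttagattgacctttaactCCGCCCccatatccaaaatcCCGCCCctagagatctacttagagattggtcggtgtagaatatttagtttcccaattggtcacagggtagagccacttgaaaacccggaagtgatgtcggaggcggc
Ruvbl1: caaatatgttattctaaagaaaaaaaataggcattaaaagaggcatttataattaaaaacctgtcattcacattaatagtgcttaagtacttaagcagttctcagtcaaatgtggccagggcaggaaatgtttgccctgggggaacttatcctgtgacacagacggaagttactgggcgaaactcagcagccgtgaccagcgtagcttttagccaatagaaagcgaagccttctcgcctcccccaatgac
The Tert window held 2 GC boxes and the Nhp2 window held 3. The Dkc1 and Ruvbl1 windows held 0. The motif was searched on both strands, and 32.9% of the windows of 27025 genes had at least 1. Base composition was 57.2% G and C for Tert, 54.8% for Nhp2, 52.0% for Dkc1 and 42.4% for Ruvbl1. The E-box CACGTG, searched the same way, was in none of these 4 windows and in 6.05% of all windows. Of the members it was found only near Wrap53, among the 9 members with a RefSeq window.

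Members differed widely in level. Levels between genes are given as CPM per kilobase: CPM is each count as a share of its library's TMM-scaled total, on edgeR's common scale, divided here by the gene length that the table gives. The order of the medians over 14 libraries was Acd (25.3), Dkc1 (20.6), Tinf2 (13.6), Terf2ip (8.17), Wrap53 (6.92), Terf1 (5.62), Pot1a (4.19), Terf2 (3.94), Pot1b (1.83) and Tert (0.216). Ranges over libraries overlapped for every neighbouring pair in this order. Within a library, Pot1b stood above Tert in 14 of 14 and Terf2 above Pot1b in 12 of 14. Acd stood above Dkc1 in only 9 of 14, and Pot1a above Terf2 in 8 of 14. The shelterin genes thus spread from 25.3 for Acd to 1.83 for Pot1b in median CPM per kilobase. Tinf2 and Acd levels are less certain, because 31.2% and 33.3% of their exonic bases overlap Gmpr2 and Carmil2 on the opposite strand, and whether counting used strand is not stated. Of 50-base words in their transcripts, 26.5% for Tinf2 and 23.1% for Acd also occur in other genes, against at most 2.97% for the other members. For the paralogues Pot1a and Pot1b these shares were 0.186% and 1.36%. Both strands were searched. Of the shared words, 1352 of 1395 for Tinf2 occur in Gmpr2 and 878 of 878 for Acd occur in Carmil2, the overlapping genes named above.

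**Figure D1:**
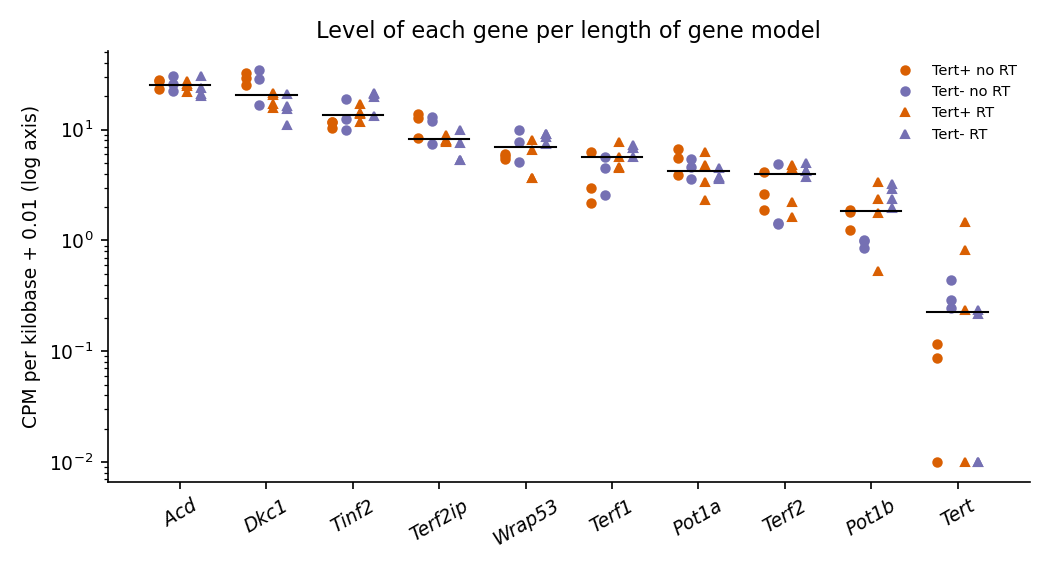
CPM per kilobase, plus a small constant, on a log axis for each member, with 1 point per library coloured by group, libraries listed at 0 drawn at the bottom, and a bar at the median of 14 libraries. Acd and Dkc1 sit highest at medians of 25.3 and 20.6, and Tert sits lowest at 0.216.

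Tert, the catalytic subunit (ENSMUSG00000021611, chr13:73626911-73649843, plus strand, 16 merged exons), was at the edge of detection. Without RT the 3 Tert+ libraries held 0, 7 and 8 counts, and the 3 Tert- libraries 22, 28 and 13. After RT the 4 Tert+ libraries held 0, 52, 34 and 15 counts, and the 4 Tert- libraries 0, 0, 9 and 15. The tdTomato+ libraries without RT were therefore all below the tdTomato- libraries, while after RT the populations overlapped. Markers of other cells also differed in level in this contrast without RT. Macrophage markers took 0.0106% to 0.0279% of counts in Tert+ and 0.150% to 0.197% in Tert-, with no overlap, and 2 of 8 were called lower in Tert+ (C1qc and Ms4a7). Granular duct markers took 0.170% to 0.473% in Tert+ and 0.436% to 1.41% in Tert-, which overlapped, and all 8 fold changes were below 0 with 0 called by edgeR. Germinal-centre B-cell markers took 0.0315% to 0.0735% in Tert+ and 0.0276% to 0.0312% in Tert-, which did not overlap, and 0 of 8 were called by edgeR. Their part in the Tert values was not tested. Libraries listed at 0 allow up to 0.325 CPM (unscaled) in Tert+ without RT, 0.268 in Tert+ after RT, and 0.543 and 0.403 in Tert- after RT, on the limit of 3 counts. Counting error alone was wide: 52 counts gave an exact 95% interval of 6.49 to 11.4 unscaled CPM, and 7 counts gave 0.177 to 0.905. Both cover counting error alone, because the reads carry no molecular identifiers and may repeat a molecule.

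No contrast of Tert passed a test. Mean CPM was 0.350 ± 0.314 (SD, n = 3) in Tert+ and 1.81 ± 0.566 (SD, n = 3) in Tert- without RT, with an exact two-sided permutation p = 0.1, the smallest that 3 against 3 can give. The irradiated groups had means of 3.58 ± 3.76 (SD, n = 4) in Tert+ and 0.621 ± 0.718 (SD, n = 4) in Tert-, exact permutation p = 0.257. For RT the exact permutation p was 0.257 within Tert+ cells. Within Tert- cells the exact permutation p was 0.0857, and 0.0286 is the smallest either comparison can reach. Adjusted over these 4 tests, the exact permutation p-values were 0.2, 0.257, 0.257 and 0.2. Tert is the member with the widest difference in RT change between populations, 4.75 on the log2 scale (SE 2.27, edgeR adjusted p = 1.00). In bulk samples such as these, fewer cells of a type and less RNA per cell cannot be told apart. Much of the irradiated Tert+ signal came from 1 library: of the 101 counts in Tert+ after RT, replicate 2 gave 52, and that library has the second lowest depth of the 14.

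**Figure D2:**
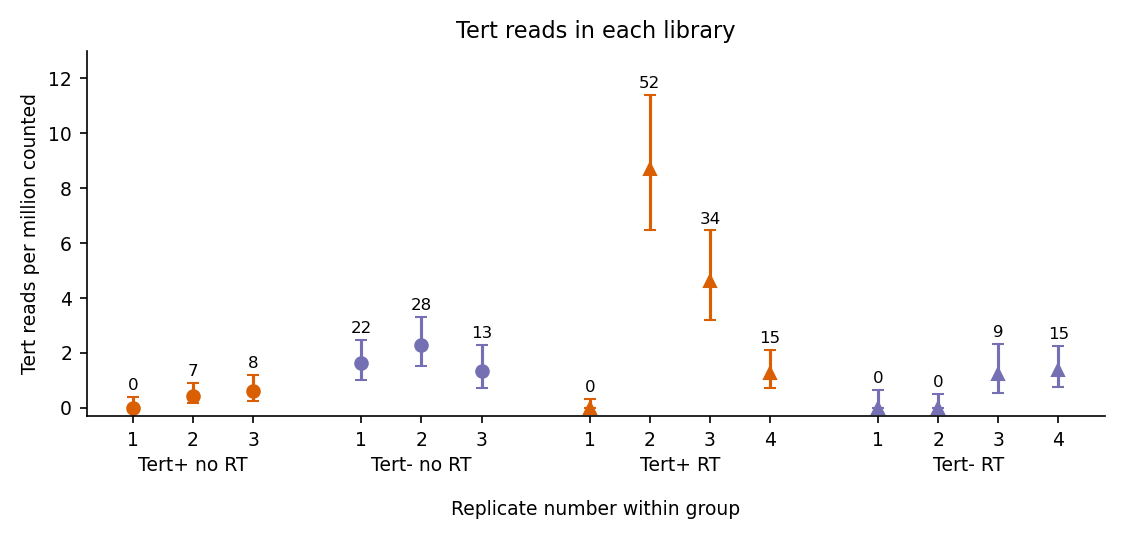
Tert counts relative to library total in each of the 14 libraries by group, with exact 95% intervals for counting error and the raw count above each point. The Tert+ libraries without RT hold 0 to 8 counts and the Tert- libraries without RT 13 to 28, while after RT each population ranges from 0 upward, to 52 in Tert+ and 15 in Tert-.

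Genes that passed the filter were ranked by how closely their log2 CPM followed Tert over the 14 libraries, leaving out predicted genes and pseudogenes. The highest were Zfp595 (r = 0.78), Morc2a (r = 0.76) and Saa3 (r = 0.76). These are Pearson correlations given as a description of libraries that share depth and group. Zfp595 and Saa3 were themselves sparse, with 210 and 109 counts in all 14 libraries, and Morc2a held 4199.

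Dkc1, the pseudouridine synthase dyskerin (ENSMUSG00000031403, chrX:75095854-75109777, plus strand), fell after RT. Its CPM was 104, 133 and 119.6 in Tert+ without RT and 68.5, 141 and 119 in Tert- without RT. The libraries after RT held 84.0, 70.3, 64.4 and 87.5 in Tert+ and 67.5, 63.8, 45.6 and 85.6 in Tert-. In Tert+ every library after RT was below every library without RT, while in Tert- the groups overlapped through replicate 1 without RT. Of the 6 libraries without RT, 5 stood above all 8 libraries after RT. The mean was 71.1 ± 14.2 CPM after RT (SD, n = 8) and 114 ± 25.8 without RT (SD, n = 6).

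Averaged over the populations, Dkc1 fell by 0.69 on the log2 scale (SE 0.17), edgeR quasi-likelihood test, adjusted p = 0.0153. It was the only 1 of 10 members called in this comparison, where 13.4% of all genes tested were called. A count of 1 in 10 is near that background. The RT difference was -0.64 (SE 0.24, edgeR adjusted p = 0.173) in Tert+ and -0.74 (SE 0.24, edgeR adjusted p = 0.109) in Tert-, neither past the threshold, and the difference between these 2 values was 0.10 (SE 0.34). In Tert- it passed without Tert- no RT replicate 1 (log2 change -0.98, edgeR adjusted p = 0.0172) and with DESeq2 (adjusted p = 0.0447). Leaving out Tert- no RT replicate 2, the library with the highest Dkc1 value, ended the call (log2 change -0.57, edgeR adjusted p = 0.0520). Mpp1, which shares 45 exonic bases with Dkc1 on the other strand (1.09% of Dkc1's exons), also fell, by 0.46 (SE 0.13, edgeR adjusted p = 0.0286). The small nucleolar RNA Gm25520 lies within Dkc1 and had 7 counts in all 14 libraries.

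Marker genes of other cell states moved with the same contrast. Cycling-cell markers took 0.0267% to 0.0328% of counts after RT and 0.0413% to 0.0654% without RT, with no overlap. All 8 had fold changes below 0, and edgeR called 6 of 8 lower (Mcm6, Mcm2, Mcm5, Top2a, Mki67 and Ccnb1). Germinal-centre B-cell markers took 0.0112% to 0.0148% after RT and 0.0276% to 0.0735% without RT. Fold changes were below 0 for 8 of 8, with 7 called lower by edgeR and 1 of 8 at 0 in all libraries after RT. Pan-B-cell markers overlapped between 0.954% to 1.17% after RT and 0.788% to 1.31% without, and 0 of 8 were called by edgeR. Epithelial markers overlapped too, and 0 of 8 were called by edgeR. T-cell markers took 0.00938% to 0.0415% after RT and 0.0194% to 0.0649% without, which overlapped. Their fold changes were below 0 for 8 of 8 (median log2 change -1.21), and edgeR called 1 lower (Lck). Macrophage markers took 0.0104% to 0.123% after RT and 0.0106% to 0.197% without, which overlapped. Only 3 of 8 had fold changes below 0 (median log2 change 0.18), and edgeR called 2 lower (Csf1r and Cd68). The populations differed in this. Within Tert+, 3 of 8 fold changes were below 0 (median log2 change 1.66), and edgeR called 1 of 8 higher after RT (Ms4a7). Within Tert-, macrophage shares did not overlap, at most 0.123% after RT and at least 0.150% without. All 8 fold changes in Tert- were below 0 (median log2 change -1.22), with 0 called by edgeR. Acinar markers (0.327% to 2.57% after RT, 0.180% to 1.87% without) and granular duct markers (0.0757% to 1.06%, 0.170% to 1.41%) overlapped, with 0 of 8 called in each by edgeR. The part of these cells in the Dkc1 result was not tested.

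**Figure D3:**
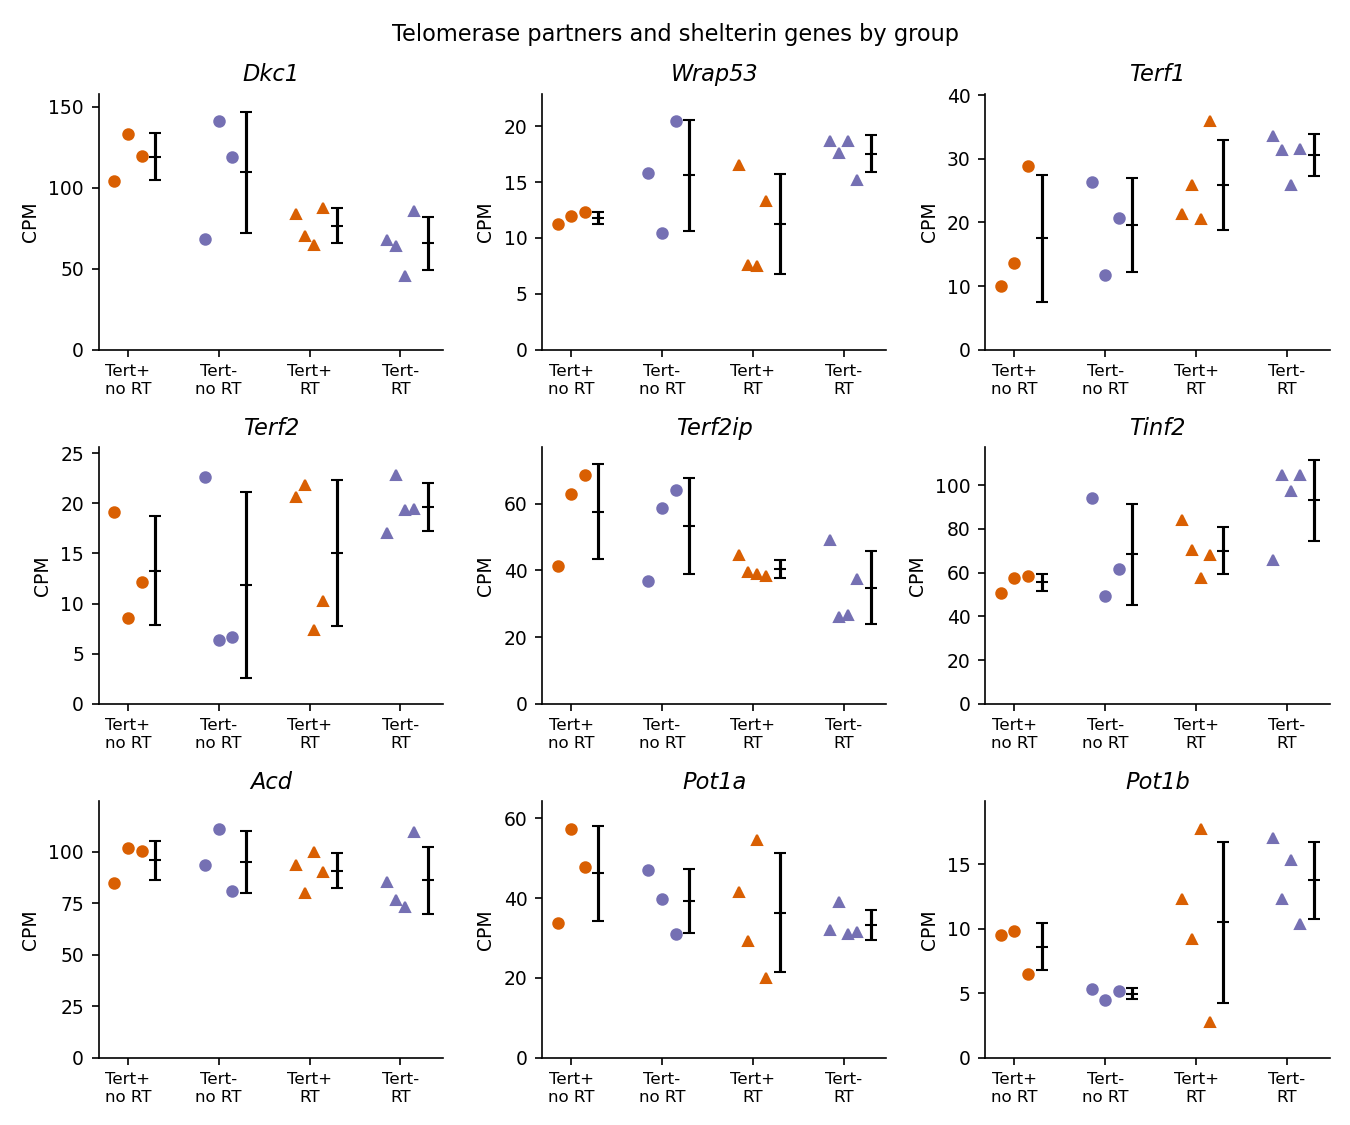
CPM of the 9 members other than Tert in the 14 libraries by group, with 1 point per library, a bar at the group mean and whiskers of 1 SD, each panel on its own axis from 0. Dkc1 after RT runs from 45.6 to 87.5 CPM against 68.5 to 141 without RT, and Pot1b in Tert- runs from 10.4 to 17.0 after RT against 4.46 to 5.30 without.

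Wrap53, the Cajal body carrier (ENSMUSG00000041346, chr11:69561758-69580255, minus strand), did not separate by RT. In the gene models used it does not overlap its neighbour Trp53. Its CPM was 11.2, 11.9 and 12.3 in Tert+ and 15.8, 10.5 and 20.5 in Tert- without RT. With RT, Wrap53 read 16.6, 7.60, 7.51 and 13.3 in Tert+ and 18.7, 17.6, 18.6 and 15.2 in Tert-. Tert+ libraries ran lower on average, at 11.5 ± 3.19 against 16.7 ± 3.28 CPM (SD, n = 7 each), with overlapping ranges. That difference was -0.52 on the log2 scale (SE 0.24, edgeR adjusted p = 0.602). In the same comparison all 8 macrophage markers had fold changes below 0, and edgeR called 6 of 8 lower in Tert+, among them C1qa and Adgre1. Fold changes were also below 0 for 7 of 8 granular duct and 7 of 8 general epithelial markers. They were below 0 for 1 of 8 acinar, 1 of 8 germinal-centre and 0 of 8 T-cell markers. For B-cell and cycling-cell markers it was 3 of 8 each, and edgeR called 0 in all of these sets but the macrophage one. The part of these markers was not tested. The RT difference of Wrap53 was 0.051 (SE 0.24, edgeR adjusted p = 0.925).

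Terf1 and Terf2, the duplex binders, had higher means after RT without passing the test. Terf1 (ENSMUSG00000025925, chr1:15805646-15844052, plus strand) was at 10.02, 13.7 and 28.8 CPM in Tert+ and 26.3, 11.8 and 20.7 in Tert- without RT. After RT, Terf1 stood at 21.3, 25.9, 20.6 and 35.9 in Tert+ and 33.5, 31.4, 25.9 and 31.6 in Tert-. All 8 libraries after RT lay above the median of the libraries without RT, though the ranges overlapped. The difference was 0.60 on the log2 scale (SE 0.26, edgeR adjusted p = 0.130), and it passed only without Tert+ no RT replicate 3 (edgeR adjusted p = 0.0341). Terf2 (ENSMUSG00000031921, chr8:107069400-107096547, minus strand) had means of 17.3 ± 5.59 CPM after RT (n = 8) and 12.6 ± 6.85 without (n = 6), SD in both. Its 4 Tert- libraries after RT were close together, from 17.0 to 22.8 CPM, while Tert- without RT held 22.6, 6.38 and 6.61. The RT difference of Terf2 was 0.45 (SE 0.35, edgeR adjusted p = 0.421). Mir7075, within Terf2, had 0 counts.

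Terf2ip, the TRF2 partner RAP1 (ENSMUSG00000033430, chr8:112011398-112020528, plus strand), lay close to the threshold on the low side. Without RT its CPM was 41.4, 62.8 and 68.6 in Tert+ and 37.0, 58.8 and 64.1 in Tert-. With RT, Terf2ip read 44.5, 39.6, 39.0 and 38.4 in Tert+ and 49.1, 26.1, 26.6 and 37.5 in Tert-. Replicate 1 of each population without RT sat among the libraries after RT, and the other 4 without RT stood above all 8. The RT difference was -0.56 on the log2 scale (SE 0.18), edgeR adjusted p = 0.0530. DESeq2 (adjusted p = 0.0326) and limma voom (adjusted p = 0.0460) placed it past 0.05. So did edgeR without Tert+ no RT replicate 1 (adjusted p = 0.0273), Tert- no RT replicate 1 (adjusted p = 0.0216) or Tert- RT replicate 1 (adjusted p = 0.0247). Gm6793, which shares 108 exonic bases with Terf2ip on the other strand, differed by 0.17 (SE 0.28, edgeR adjusted p = 0.751). Terf2ip and its partner Terf2 thus had RT differences of opposite sign, and the contrast between these genes was not tested.

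Tinf2 and Acd, the bridge and the telomerase recruiter, differed in how steady they were. Tinf2 (ENSMUSG00000007589, chr14:55674689-55681820, minus strand) was at 50.8, 57.5 and 58.2 CPM in Tert+ and 94.0, 49.2 and 61.8 in Tert- without RT. After RT, Tinf2 stood at 84.3, 70.2, 57.7 and 68.3 in Tert+ and 65.6, 104, 97.3 and 105 in Tert-. Replicate 1 of Tert- without RT stood with the libraries after RT. The RT difference was 0.39 (SE 0.16, edgeR adjusted p = 0.115), and without that replicate it was 0.55 (edgeR adjusted p = 0.0195). Between Tert+ and Tert-, averaged over RT states, Tinf2 differed by -0.35 on the log2 scale (SE 0.16, edgeR adjusted p = 0.577). Cell type markers in this comparison are given with Wrap53, and their part in the Tinf2 value was not tested. Gmpr2, which overlaps Tinf2, had an RT difference of -0.15 (SE 0.23, edgeR adjusted p = 0.715), opposite in sign to that of Tinf2.

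Acd (ENSMUSG00000038000, chr8:105695860-105701102, minus strand) varied least of the members relative to its level. Its mean was 95.5 ± 11.2 CPM without RT (SD, n = 6) and 88.5 ± 12.3 after RT (SD, n = 8). The 14 libraries lay between 73.0 and 111 CPM, and groups overlapped in every comparison. The RT difference was -0.11 (SE 0.12, edgeR adjusted p = 0.587), the smallest SE among the members. Carmil2, which overlaps it, had 0.26 (SE 0.22, edgeR adjusted p = 0.476).

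Pot1a and Pot1b, the overhang binders, differed in level and pattern. Pot1a (ENSMUSG00000029676, chr6:25743737-25809246, minus strand) was at 33.7, 57.3 and 47.7 CPM in Tert+ and 47.1, 39.8 and 31.0 in Tert- without RT. After RT, Pot1a stood at 41.6, 29.3, 54.6 and 20.1 in Tert+ and 32.1, 38.9, 30.9 and 31.4 in Tert-. These groups overlapped throughout, and the RT difference was -0.29 (SE 0.21, edgeR adjusted p = 0.381). Pot1b (ENSMUSG00000024174, chr17:55651951-55712628, minus strand) was at 9.53, 9.80 and 6.53 CPM in Tert+ and 5.30, 4.46 and 5.14 in Tert- without RT. After RT, Pot1b stood at 12.3, 9.21, 17.7 and 2.74 in Tert+ and 17.0, 12.3, 15.3 and 10.4 in Tert-. In Tert-, all 4 libraries after RT stood above all 3 without RT. In Tert+ the libraries after RT spread on both sides of those without, with replicate 4 lowest.

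The Pot1b difference in Tert- was 1.47 on the log2 scale (SE 0.50), edgeR adjusted p = 0.133. In Tert+ it was 0.28 (SE 0.48, edgeR adjusted p = 0.833), and the difference between the populations was -1.18 (SE 0.68, edgeR adjusted p = 1.00). Averaged over populations it was 0.87 (SE 0.35, edgeR adjusted p = 0.109). Without Tert+ RT replicate 4, a library that stands apart, the averaged value was 1.04 (edgeR adjusted p = 0.0204). Pot1b in Tert+ without RT lay above Tert- without RT in every library, by 0.79 (SE 0.52, edgeR adjusted p = 1.00). The small genes Gm22654 and AC154443.2, within introns of Pot1b, had 3 and 24 counts.

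**Figure D4:**
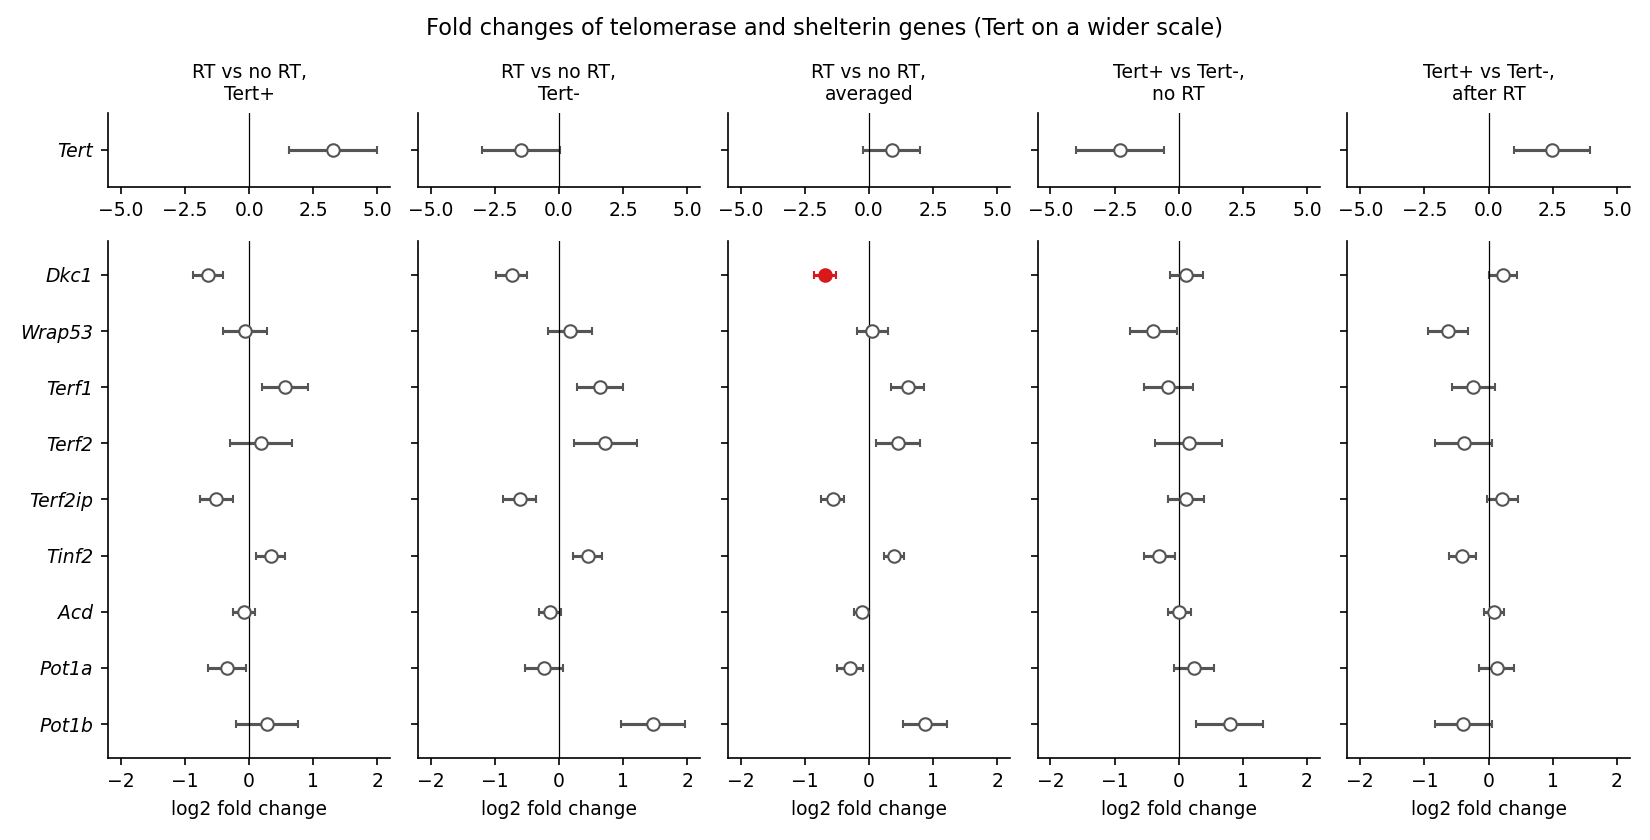
Log2 fold changes with bars of 1 SE for the 10 members in 5 comparisons, Tert on a wider axis, with filled red points where the edgeR adjusted p is under 0.05. Dkc1 averaged over populations, at -0.69, is the only filled point.

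In the other comparisons edgeR called 0 of 10 members, and it called few of all genes there. Between Tert+ and Tert- without RT edgeR called 0 of 10, with 0.0377% of all genes called, and 0 at an unadjusted p under 0.05, where 4.50% of genes were. Pot1b was higher and Tert lower without overlap there, against 8.87% of all genes without overlap in either direction. Between the populations after RT edgeR called 0 of 10, with 0.0126% of genes called, and 0 at an unadjusted p under 0.05, where 7.39% of genes were. No member was free of overlap in that comparison, against 4.88% of genes. Averaged over RT states edgeR called 0 of 10, against 0.220% of genes, and 2 (Wrap53 and Tinf2) at an unadjusted p under 0.05, against 8.24% of genes. DESeq2 and limma voom also called 0 members in each of these 3 comparisons.

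For RT in Tert+, edgeR called 0 of 10 members against 1.98% of genes, and 1 (Dkc1) at an unadjusted p under 0.05, against 18.0% of genes. DESeq2 and limma voom called 0. Dkc1 alone did not overlap, against 15.5% of genes. For RT in Tert-, edgeR called 0 of 10 against 1.62% of genes, and 3 (Dkc1, Terf2ip and Pot1b) at an unadjusted p under 0.05, against 18.8% of genes. DESeq2 called 2 (Dkc1 and Pot1b) and limma voom 0. Pot1b and Tert did not overlap there in TMM-scaled CPM, against 18.9% of genes. For Tert the gap was narrow, with at most 1.29 CPM after RT and at least 1.36 without. Its raw counts did overlap, reaching 15 after RT and going down to 13 without. For the difference of RT changes edgeR called 0 of 10 and 0.00% of genes, with 0 members at an unadjusted p under 0.05 against 3.63% of genes, and DESeq2 and limma voom called 0. The RT comparisons and the population comparisons share libraries. Averaged over populations, 5 of 10 members had an unadjusted edgeR p under 0.05, against 28.9% of genes, with 3 of the 5 higher and 2 lower. The median log2 change over the members was 0.22 and over all genes -0.0099.

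The wider telomere list held 21 genes, of which 20 passed the filter. Terc, the RNA template, did not pass, with 0 to 10 counts per library. Averaged over populations, RT left 1 of 20 higher and 3 lower by edgeR, against 13.4% of all genes called in either direction. The calls in the list are thus near that background. The list's median log2 change was -0.10, against -0.0099 over all genes. The 3 that fell work with dyskerin. Nhp2 is a core H/ACA protein, and Ruvbl1 and Ruvbl2 are AAA+ ATPases that help assemble the particle and serve in many other complexes. Nop10, Gar1 and Naf1, of the same particle or its assembly, were also on the list and were not called.

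Ruvbl1 was lower in every library after RT than the median without RT. Its CPM was 87.8, 110.5 and 127 in Tert+ and 78.5, 115 and 86.3 in Tert- without RT. After RT, Ruvbl1 stood at 63.2, 63.2, 57.6 and 50.7 in Tert+ and 92.3, 58.8, 54.9 and 65.1 in Tert-. Only Tert- RT replicate 1 reached into the range without RT. It fell by 0.67 (SE 0.14, edgeR adjusted p = 0.00718), a call that held in 14 of 14 leave-outs. Within Tert+ it fell by 0.89 (SE 0.20, edgeR adjusted p = 0.0372), a call lost in 8 of 14 leave-outs (edgeR adjusted p up to 0.180): without Tert+ no RT replicates 2 and 3, any Tert+ RT replicate, or Tert- RT replicates 2 and 4. It was also lost with only the compared groups in the fit (edgeR adjusted p = 0.0644).

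Nhp2 had a mean of 56.2 ± 11.4 CPM after RT (SD, n = 8) and 81.5 ± 15.5 without (SD, n = 6), and fell by 0.53 (SE 0.15, edgeR adjusted p = 0.0338). Ruvbl2 had 33.6 ± 5.70 after RT (n = 8) and 48.0 ± 8.95 without (n = 6), SD in both, and fell by 0.51 (SE 0.15, edgeR adjusted p = 0.0383). Their ranges overlapped between RT states. Zbtb48, which encodes the telomere-binding zinc finger protein TZAP, had 16.9 ± 5.65 CPM after RT and 9.58 ± 3.76 without, and rose by 0.88 (SE 0.26, edgeR adjusted p = 0.0386). These 3 calls did not hold in every leave-out. Nhp2 was lost in 8 of 14 (edgeR adjusted p up to 0.0949): without replicates 2 and 3 of either group without RT, Tert+ RT replicate 2, or Tert- RT replicates 1, 2 and 3, each left out alone. Ruvbl2 was lost in 9 (up to 0.125): without replicates 2 and 3 of either group without RT, Tert+ RT replicates 1 and 2, or Tert- RT replicates 1, 2 and 4. Zbtb48 was lost in 9 (up to 0.0941): without any Tert+ no RT replicate, Tert- no RT replicates 1 and 3, Tert+ RT replicates 3 and 4, or Tert- RT replicates 2 and 4. With no filter on low counts Ruvbl2 (edgeR adjusted p = 0.0635) and Zbtb48 (edgeR adjusted p = 0.0747) also missed the threshold. So did Zbtb48 without the pair of libraries that stand apart (edgeR adjusted p = 0.0928). The cycling-cell markers given above moved in the same contrast, and their part was not tested.

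Other genes of the list did not pass. Gar1, another H/ACA protein that was picked out after its value was seen, differed by -0.59 (SE 0.24, edgeR adjusted p = 0.115), and Nop10, the smallest core protein, by -0.13 (SE 0.11, edgeR adjusted p = 0.472). Naf1, an assembly factor of the same particle also picked out after its value was seen, differed in the other direction, by 0.86 (SE 0.50, edgeR adjusted p = 0.274). Of the CST complex, which helps fill in the overhang, Ctc1 differed by -0.18 (SE 0.16, edgeR adjusted p = 0.491) and Ten1 by -0.39 (SE 0.16, edgeR adjusted p = 0.130). The poly(A) ribonuclease Parn differed by -0.16 (SE 0.16, edgeR adjusted p = 0.573). The tankyrase Tnks2 differed by -0.033 (SE 0.10, edgeR adjusted p = 0.874). In RT within Tert+ edgeR and limma voom called 1 of 20 (Ruvbl1) and DESeq2 called 2 (Ruvbl1 and Zbtb48). In the other 5 comparisons edgeR, DESeq2 and limma voom called 0 of 20. Of the 20, unadjusted edgeR p-values under 0.05 numbered 8 for RT averaged over populations (28.9% of all genes), 6 for RT in Tert+ (18.0%) and 4 for RT in Tert- (18.8%). They numbered 1 between populations without RT (4.50% of all genes), 2 after RT (7.39%), 2 averaged over RT states (8.24%) and 0 for the difference of RT changes (3.63%).

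**Figure D5:**
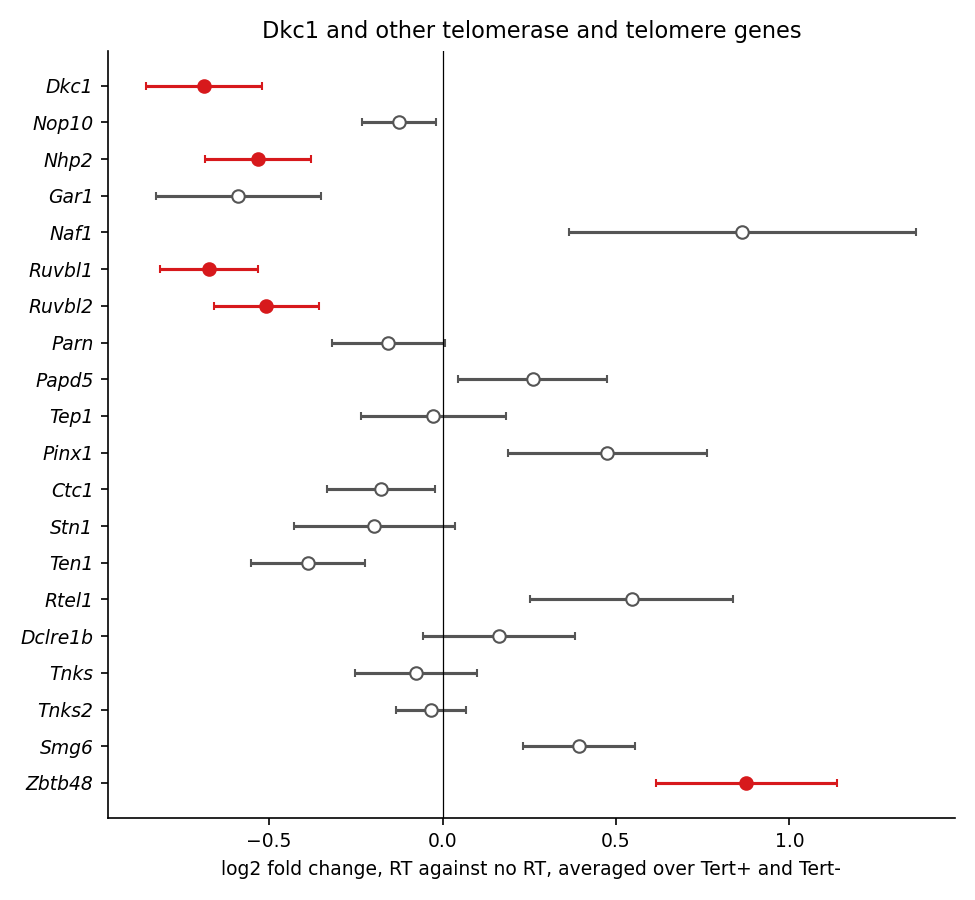
Log2 fold changes after RT, averaged over populations, with bars of 1 SE for Dkc1 and the other telomere genes, filled red where the edgeR adjusted p is under 0.05. Ruvbl1, Nhp2 and Ruvbl2 lie between -0.67 and -0.51 and Zbtb48 at 0.88. Terc was not tested, and Pif1, at -5.23 with an SE of 1.66 (edgeR adjusted p = 0.0567), is left out. Pif1 held 105 counts in all, with 9 of 14 libraries at 0. Of its 102 counts without RT, 1 Tert+ library held 56 and 1 Tert- library 37.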

How the data were processed

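RNA-seq of 14 libraries was made from 1 ng of RNA each by the Picelli protocol, per the labels' protocols. Reads were aligned with HISAT2 to mm10, per the submitters' processing notes; the counting program and annotation are not given in the sources used here. The authors deposited raw counts per gene, and the gene length in bases, per the file headers. Groups follow the titles. The analysis used edgeR 4.0.16 in R 4.3.3: filterByExpr on 4 groups, TMM scaling, 1 robust quasi-likelihood fit over 14 libraries, 7 contrasts, and Benjamini-Hochberg adjustment over 15915 genes at 0.05. CPM uses TMM-scaled totals. Exact permutation tests of Tert CPM used scipy 1.17.1. Intervals are Clopper-Pearson at 95%, and the limit for a count of 0 is 3 counts. DESeq2 1.42.0 and limma 3.58.1 (voom) were alternatives, with other scaling, no filter, left-out libraries and a replicate block. The edgeR fit was tested on simulated counts. Gene models were GENCODE M21, in which 10 of 10 members had the table's position. No 2 libraries had identical counts. Members and lists were chosen with earlier results of these data known. All 10 members are named, with overlapping genes, and other telomere genes past the threshold or the 2 most abundant of each subgroup. The 3 genes most correlated with Tert, predicted genes and pseudogenes left out, are also named.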

Additional observations from a re-analysis of the deposited data

Results flagged for a closer look

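Pot1a in Tert- after RT had a library far from the others: replicate 2 stood at 38.9 CPM, where the other 3 lay between 30.9 and 32.1. Its gap to the nearest library was 0.855 of the group's range. Of 20 groups of 4 libraries examined, 1 was flagged, and chance flags about 1 in 20.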

How the results depend on the processing

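Members called by edgeR averaged over populations after RT were 1 (Dkc1), but 2 with DESeq2 and 2 with limma voom (Dkc1 and Terf2ip), 3 without the 2 libraries that stand apart (Dkc1, Terf2ip and Pot1b), and 0 to 3 on leaving out 1 library. For RT in Tert- the count was 0, but 2 with DESeq2 (Dkc1 and Pot1b) and 0 to 1 on leaving out 1 library. Other member counts stayed at 0. The labels do not say whether replicate numbers pair Tert+ with Tert- libraries, though each such pair carries consecutive library numbers. Correlations of same-numbered libraries within RT status ran from -0.049 to 0.12 (median 0.030), 2 of 7 over 0.1. Those of other numbers ran from -0.18 to 0.10 (median -0.027), 1 of 18 over 0.1. Of 14 libraries, 7 matched their own number best. These values did not settle pairing, and the main tests were unpaired. The replicate block joined equal replicate numbers across RT states, a link that the labels do not state. With that block, Dkc1 kept its call (log2 change -0.65 to -0.79 over 6 alternatives, edgeR adjusted p = 0.0155 with the block), and 1 member was called. Ruvbl1 in Tert+ (edgeR adjusted p = 0.0796) and Zbtb48 (edgeR adjusted p = 0.0934) were lost. Block fits of Tert gave -0.054 for RT averaged and -0.68 (-0.15 within RT status) for population averaged. Exact sign-flips of pair differences in Tert gave p = 0.25 without RT, the smallest that 3 pairs can give. After RT exact sign-flips gave p = 0.5. The smallest possible there was also 0.25, because replicate 1 was at 0 in both populations. Neither test could reach 0.05.

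Signs of uncalled values turned as follows; the cause was not tested. With limma voom, Tert was -0.35 for RT averaged, against 0.89 (SE 1.10) with edgeR, and -0.59 for population averaged, and Pot1b -0.090 for RT in Tert+. Without the 2 libraries that stand apart, Terf1 was 0.11 and Terf2 -0.20 between populations without RT, Wrap53 -0.015 for RT averaged, and the difference of RT changes -0.054 for Dkc1, -0.061 for Terf2ip and -0.0068 for Acd. Acd between populations without RT was -0.0024 with RLE scaling, -0.0021 with DESeq2 and -0.0046 with only the compared groups. Leaving out 1 library gave these ranges between populations without RT: Dkc1 -0.15 to 0.33, Terf1 -0.72 to 0.12, Terf2 -0.20 to 1.01, Terf2ip -0.11 to 0.31 and Acd -0.093 to 0.13. After RT, Pot1a ran from -0.14 to 0.33. For RT in Tert+, Wrap53 ran from -0.30 to 0.083, Terf2 from -0.054 to 0.54 and Pot1b from -0.10 to 0.61. For RT in Tert-, Wrap53 ran from -0.056 to 0.42. For the difference of RT changes the ranges were Dkc1 -0.10 to 0.35, Terf1 -0.36 to 0.49, Terf2ip -0.10 to 0.31, Tinf2 -0.41 to 0.091, Acd -0.045 to 0.20 and Pot1a -0.37 to 0.10. For RT averaged, Wrap53 ran from -0.057 to 0.18. For population averaged, Tert ran from -0.35 to 0.38, Terf2 from -0.30 to 0.30 and Acd from -0.0039 to 0.11.

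Counts over all genes moved most with DESeq2: 74 against 6 between populations without RT, 109 against 2 after RT, 1057 against 315 for RT in Tert+, 1198 against 258 for RT in Tert-, 12 against 0 for the difference and 162 against 35 for population averaged. Between populations without RT the count was also 16 with no filter, 22 with limma voom and 12 without the 2 libraries that stand apart. After RT it was 4 with no filter, 0 with limma voom, and 1 without those libraries, with only the compared groups, or with the block within RT status. With only the compared groups in the fit, RT called 49 in Tert+ and 88 in Tert-. Without the 2 libraries that stand apart, RT in Tert- called 493 and the difference 2. Depth limits Tert, at 0 to 52 counts.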
